A study of Mus musculus with 2 samples.

Results

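The 6 genes described here encode the mouse Fc gamma receptors FcγRI (Fcgr1), FcγRIIB (Fcgr2b), FcγRIII (Fcgr3) and FcγRIV (Fcgr4), the Fc receptor gamma chain (Fcer1g) and the heavy chain of the neonatal Fc receptor (Fcgrt). They were taken by symbol, and all 6 were found among the 32285 genes of each library. The 2 libraries came from mice labelled wild type and mice labelled Fcgr2b knockout. Both groups carried a GL261 glioma, a transplantable mouse brain tumour line, from 100000 cells inoculated on day 0. Both received 200 µg of anti-PD-1, an immune checkpoint antibody, into the peritoneum on days 10, 13 and 16, so neither library shows mice without this antibody. Brains were taken on day 20, and the cells of 5 brains per group were pooled before CD45.2+ 7-AAD- live cells were sorted. The labels used here name no strain or age and do not say which part of Fcgr2b was deleted. The protocol names lung cells at the sort although the tissue is brain, and the molecule is given as polyA RNA for one library and total RNA for the other. CD16 and CD32 were blocked with clone 2.4G2 before staining.

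Fc gamma receptors bind the constant part of IgG antibodies. FcγRI, FcγRIII and FcγRIV are activating: they pair with the gamma chain, whose ITAM motifs recruit the kinase Syk. FcγRIIB carries its own ITIM motif, recruits the phosphatase SHIP1 (Inpp5d), and restrains the activating receptors on phagocytes and the antigen receptor on B cells. FcRn, the product of Fcgrt, binds IgG inside acidic endosomes and returns it to the cell surface.

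Of the 6 genes, 4 lie together on chromosome 1 (GRCm38, GENCODE M21). Fcgr2b (ENSMUSG00000026656) spans chr1:170958617-170976547 on the minus strand, Fcgr4 (ENSMUSG00000059089) chr1:171018920-171029761 on the plus strand, and Fcgr3 (ENSMUSG00000059498) chr1:171051174-171064935 on the minus strand. Fcer1g (ENSMUSG00000058715) spans chr1:171229572-171234365, also on the minus strand. Fcgr1 (ENSMUSG00000015947) lies at chr3:96282909-96293969 and Fcgrt (ENSMUSG00000003420) at chr7:45092990-45103851, both on the minus strand.

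The transcripts of the inhibitory receptor Fcgr2b and the activating receptor Fcgr3 share a run of 129 bases, which is shown because the comparison of these receptors rests on telling their reads apart. The run is coding in both. It covers positions 402 to 530 of the Fcgr2b transcript (3544 bases) and 313 to 441 of the Fcgr3 transcript (1347 bases). Small letters are its 102 bases in exon 3, at chr1:170967980-170968081 in Fcgr2b and chr1:171057691-171057792 in Fcgr3. Capitals are its 27 bases in exon 4, at chr1:170966674-170966700 and chr1:171054167-171054193.
Fcgr2b and Fcgr3, shared run: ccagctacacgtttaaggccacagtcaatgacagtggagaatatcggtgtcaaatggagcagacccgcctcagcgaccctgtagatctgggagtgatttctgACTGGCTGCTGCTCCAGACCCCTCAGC
Among the other 14 of 15 pairs of these genes' transcripts, the longest shared run was 14 bases. The sources used here do not say how reads that fall wholly inside the run were assigned. The level of Fcgr2b therefore does not check the knockout label, since neither the deleted exons nor the handling of these reads is known.

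The sequences upstream of the 2 activating receptors whose levels were most alike over cell classes, Fcgr1 and Fcgr4, are shown for comparison (RefSeq, GRCm38.p6). Capitals mark GAGGAA, a core bound by the myeloid factor PU.1, here read on the opposite strand as TTCCTC, and TTCNNNGAA, the form of an interferon-gamma activation site.
Fcgr1, chr3:96293970-96294219, minus strand: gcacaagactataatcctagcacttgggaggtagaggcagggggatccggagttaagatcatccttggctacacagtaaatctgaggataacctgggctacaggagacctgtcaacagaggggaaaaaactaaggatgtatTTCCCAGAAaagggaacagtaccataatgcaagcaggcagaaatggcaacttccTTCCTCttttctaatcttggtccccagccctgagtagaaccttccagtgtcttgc
Fcgr4, chr1:171018676-171018919, plus strand: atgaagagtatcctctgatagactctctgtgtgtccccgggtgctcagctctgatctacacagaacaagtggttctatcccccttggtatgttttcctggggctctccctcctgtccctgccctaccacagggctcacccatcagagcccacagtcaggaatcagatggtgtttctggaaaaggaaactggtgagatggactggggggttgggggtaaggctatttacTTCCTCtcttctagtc
In all, 9 motifs were searched on both strands in the 250 bases before each start, and these 2 were chosen for display after the search. RefSeq windows were found for all 6 genes, with 2 starts for Fcgr3. These 2 starts lie 5532 and 5541 bases inside the Fcgr3 span given above, and the Fcgr2b start lies 476 bases inside its span. The windows of Fcgr3 and Fcgr2b thus fall within the annotated genes. GAGGAA was found for Fcgr1, Fcgr3 and Fcgr4 and in 23.3% of 32851 windows of the genome, and TTCNNNGAA for Fcgr1 alone and in 7.02% of them. GGAAGT was found for Fcgr1, Fcgr2b and Fcgr4 (19.7% of windows), and CANNTG for Fcer1g, Fcgr1, Fcgr2b and Fcgr4 (66.2%). The core of the interferon-stimulated response element, a spaced pair of GAAA, was found for Fcgr4 (2.98%). No window of the 6 genes held TATAAA (12.4%), TGACTCA (4.46%), TTCCNGGAA (0.913%) or TTCTTGGAA (0.365%), of which the last 2 are special cases of TTCNNNGAA. A match describes letters and not a bound site.

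After filtering, 3538 wild-type cells with a median of 2600 unique molecular identifiers (UMIs, each counting 1 captured RNA molecule) and 8145 knockout-labelled cells with a median of 3956 remained. Ptprc, the gene of the sorted marker CD45, had a UMI in 85.0% and 81.9% of them. Levels are given as CPM, the UMIs of a gene summed over a class of cells and scaled to 1000000 UMIs of the class, and ratios are knockout-labelled over wild-type. Each genotype has 1 library, which allows no test of genotype. Intervals in brackets are exact 95% intervals that cover counting error only, not differences between mice, and the absence of overlap does not show an effect of genotype. The libraries shared 46 cell barcodes. Macrophages and monocytes were 9.44% of the wild-type cells (334) and 42.5% of the knockout-labelled cells (3459).

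The activating receptors Fcgr1, Fcgr3 and Fcgr4 were concentrated in phagocytes. Fcgr1, the high-affinity receptor, stood at 323 CPM (291 to 359) in wild-type macrophages and monocytes, 310 CPM (248 to 382) in microglia, the resident macrophages of the brain, and 135 CPM (111 to 164) in type 2 conventional dendritic cells. The first 2 overlapped, and both stood above the third. In every other wild-type class Fcgr1 was at 22.4 CPM or less, and it had no UMI in wild-type T cells, NK cells, B or plasma cells or neutrophils. Knockout-labelled levels had the same order at the top: 315 CPM, 272 CPM (249 to 297) and 165 CPM (145 to 186).

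Fcgr3 stood at 431 CPM (357 to 514) in wild-type microglia and 394 CPM (358 to 433) in wild-type macrophages, which overlapped. Neutrophils followed at 212 CPM (129 to 327) and basophils at 112 CPM (71.2 to 169). Fcgr3 is the Fc gamma receptor that mouse NK cells use, and wild-type NK cells held 27.0 CPM. Fcgr4 was at 265 CPM (171 to 391) in neutrophils and 260 CPM (230 to 292) in macrophages of the wild-type library, then at 135 CPM in microglia and 61.2 CPM in type 2 dendritic cells. Neutrophils thus held Fcgr3 and Fcgr4 without a UMI of Fcgr1, although the class had only 84 wild-type cells with a median of 870 UMIs. The 49 knockout-labelled neutrophils had 175 CPM of Fcgr3, 197 CPM of Fcgr4 and 28.1 CPM of Fcgr1. The class differed in make-up: a cluster led by Camp and Ngp, genes of immature neutrophils, held 5 of the 84 wild-type and 13 of the 49 knockout-labelled cells. In the other cluster, led by G0s2 and Retnlg, Fcgr3 stood at 254 and 307 CPM and Fcgr4 at 321 and 519 CPM, with intervals that overlap between the libraries.

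The inhibitory receptor Fcgr2b was spread over more classes. Wild-type macrophages (378 CPM, 343 to 417) and microglia (377 CPM, 309 to 456) overlapped at the top. Neutrophils (138 CPM), type 2 dendritic cells (129 CPM), B or plasma cells (114 CPM) and basophils (112 CPM) formed a second group whose neighbouring intervals overlapped. The class of B or plasma cells, whose leading genes include Jchain and Mzb1 beside Cd79a and Ms4a1, held 47 Fcgr2b UMIs against 6 of Fcgr3 and none of Fcgr1 or Fcgr4 in the wild-type library. Gm38204, a gene annotated antisense to Fcgr2b, had 1 wild-type and 0 knockout-labelled UMIs, against 797 and 4898 of Fcgr2b.

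**Figure D1:**
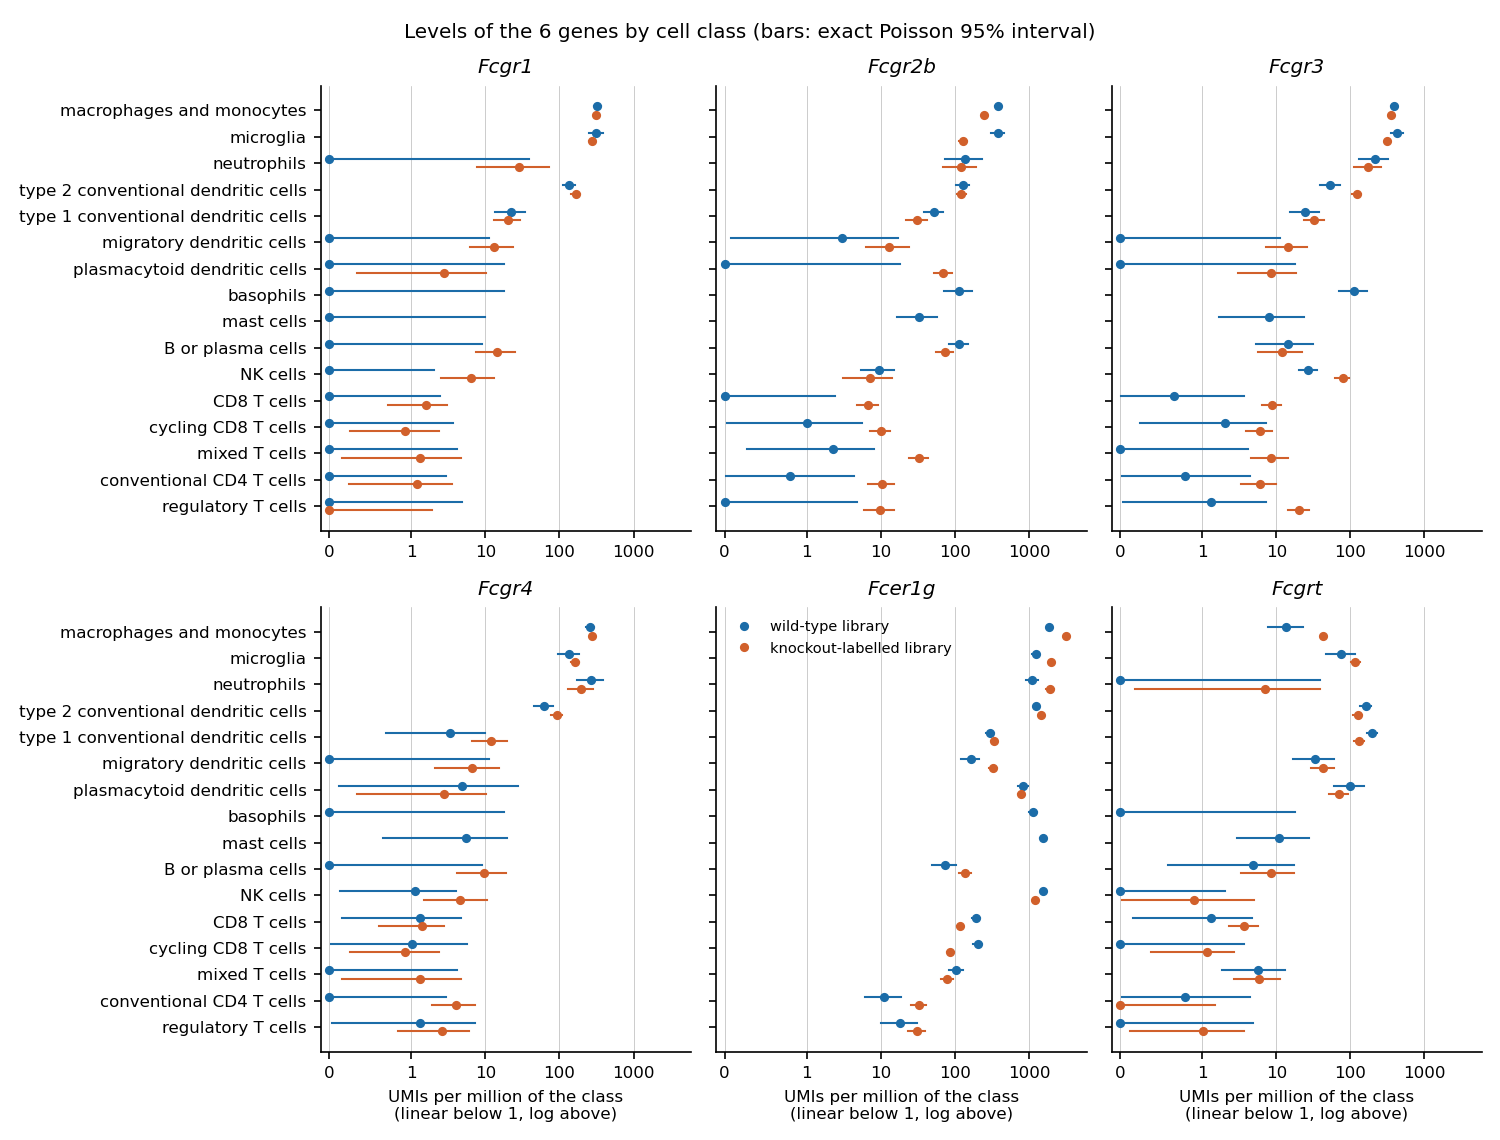
Level of each of the 6 genes (CPM) by cell class, with wild-type (blue) and knockout-labelled (orange) points and 95% counting intervals as bars, on an axis that is linear below 1 and logarithmic above. Fcgr1, Fcgr2b and Fcgr3 stand high in macrophages and microglia, Fcgr4 in macrophages and neutrophils, Fcer1g also in NK cells, mast cells and basophils, and Fcgrt in type 1 and type 2 dendritic cells.

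The signal chain gene Fcer1g had a wider range. In the wild-type library it stood at 1838 CPM (1759 to 1921) in macrophages, 1568 CPM (1511 to 1627) in NK cells and 1527 CPM (1404 to 1658) in mast cells, followed by microglia at 1242 CPM and type 2 dendritic cells at 1235 CPM. NK cells held 32.8% of all Fcer1g UMIs of the wild-type library and macrophages 23.2%, while macrophages held 82.1% in the knockout-labelled library. Mast cells and basophils use the same chain in the IgE receptor. Of its partners there, Fcer1a stood at 1408 CPM in wild-type mast cells and 117 CPM in basophils, and Ms4a2, the beta chain, at 245 and 112 CPM. Basophils held as much Fcgr2b as Fcgr3, at 112 CPM each and with no UMI of Fcgr1 or Fcgr4, whereas mast cells held 32.3 CPM of Fcgr2b and 8.08 CPM of Fcgr3. The 28 mast cells and basophils of the knockout-labelled library, in equal parts, held 43.2 CPM of Fcgr2b and 223 CPM of Fcgr3, against 60.8 and 45.1 CPM in 185 wild-type cells, of which 103 were basophils. The T cell gene Cd3e stood at 158 CPM in these knockout-labelled cells and 33.0 CPM in the wild-type cells, and Fcgr1 had 8 and 0 UMIs. Their part in the result was not tested.

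Fcgrt had an order of its own. Type 1 conventional dendritic cells, the cross-presenting subset, stood at 196 CPM (168 to 227) in the wild-type library, type 2 dendritic cells at 161 CPM (134 to 192) and plasmacytoid dendritic cells at 97.9 CPM (59.8 to 151). Wild-type macrophages and monocytes were at 13.7 CPM (7.67 to 22.6), below these 3 classes. This interval overlaps that of migratory dendritic cells (33.3 CPM, 16.6 to 59.5). Of the 15 Fcgrt UMIs of wild-type macrophages and monocytes, 12 lay in the cluster led by genes of classical monocytes. Type 1 dendritic cells held 45.9% of the wild-type library's Fcgrt UMIs. In the knockout-labelled library the numerous macrophages held 49.5%, at 43.1 CPM.

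In macrophages and monocytes, Fcer1g was higher and Fcgr2b lower in the knockout-labelled library. Fcer1g stood at 1838 CPM in the wild-type and 3147 CPM in the knockout-labelled library, a ratio of 1.71 (1.64 to 1.79). Fcgr2b stood at 378 CPM (414 UMIs) and 245 CPM (3989 UMIs), a ratio of 0.649 (0.586 to 0.720). Macrophages of the library labelled Fcgr2b knockout thus held more Fcgr2b per UMI than wild-type B or plasma cells. Fcgr1 (ratio 0.973, 0.874 to 1.09) and Fcgr4 (1.05, 0.929 to 1.19) had intervals that include equality. Fcgr3 stood at 394 and 352 CPM (0.895, 0.811 to 0.989). This direction turned when clusters with at least 10 cells in each library were weighted as in the wild-type library (1.09). It also turned when cells were gated on marker UMIs (1.03). With size factors in place of totals the Fcgr3 ratio was 0.997. Fcgrt was at 13.7 and 43.1 CPM (3.15, 1.89 to 5.65), but at a ratio of 1.24 when cells were chosen by a gate on marker UMIs. None of the 5 genes at 50 CPM or more passed 2-fold, against 5.24% of 3149 genes higher and 8.73% lower, with 10 CPM added to both sides, and the median log2 ratio of all these genes was -0.18.

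Microglia had the same directions for Fcer1g and Fcgr2b. Fcgr2b stood at 377 CPM in the wild-type and 128 CPM in the knockout-labelled library, a ratio of 0.340 (0.270 to 0.432). It was the only 1 of the 6 genes past 2-fold, on the lower side, where 3.77% of 3552 genes were found (3.18% on the higher side). Fcer1g stood at 1242 and 1983 CPM (1.60, 1.43 to 1.79) and Fcgr3 at 431 and 316 CPM (0.734, 0.602 to 0.899). Fcgr1 (310 and 272 CPM), Fcgr4 (135 and 162 CPM) and Fcgrt (74.7 and 117 CPM, ratio 1.57, 1.00 to 2.58) differed by less or with wider intervals. The median log2 ratio of all genes was -0.24.

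**Figure D2:**
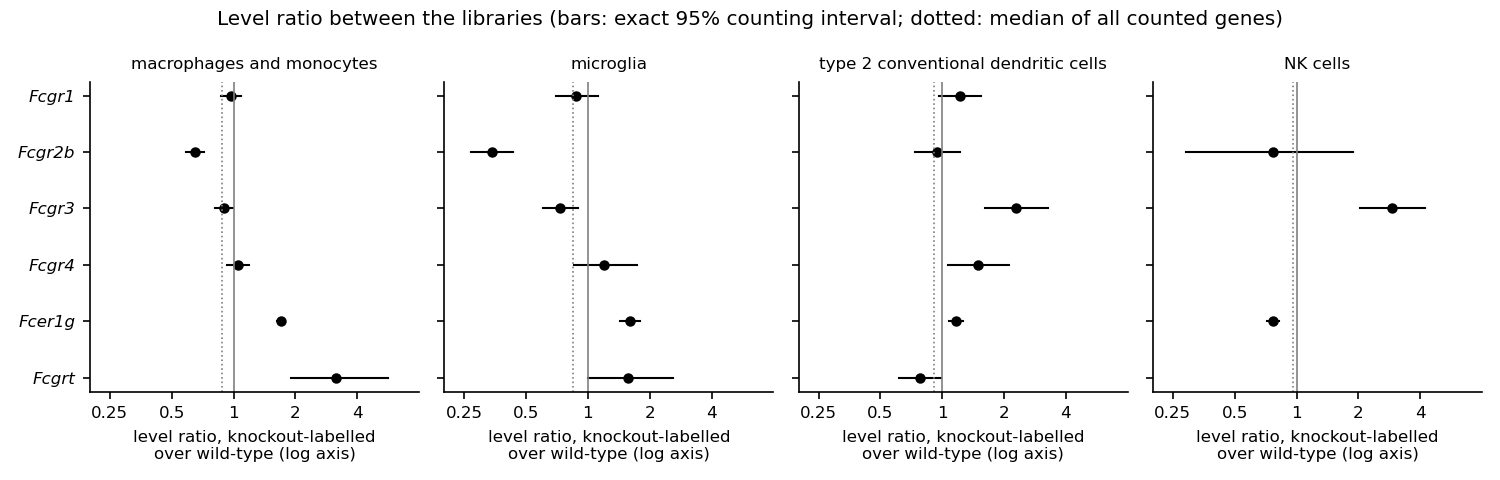
Ratio of the level in the knockout-labelled library to that in the wild-type library on a log axis, for each gene in 4 classes, with 95% counting intervals and the median of all counted genes as a dotted line. Fcgr2b lies below 1 in macrophages (0.649) and microglia (0.340), and Fcer1g above 1 in both (1.71 and 1.60).

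Different clusters made up the macrophage class in the 2 libraries, so its values mix states of monocytes and macrophages. A cluster led by Chil3, Vcan and F13a1, genes of classical monocytes, held 65.0% of the wild-type class (217 cells) and 2.37% of the knockout-labelled class (82 cells). A cluster led by Slfn4, Ms4a4c and Wfdc17 held 14.7% (49 cells) and 13.1% (454 cells). The knockout-labelled class lay mainly in clusters with few wild-type cells: Apoe, Ms4a7 and Ccl8 (706 against 9), Clec4e and Inhba (507 against 5), Cxcl1, Cxcl2 and Il1a (506 against 7), Nos2 and Mmp12 (489 against 6) and Ccl8, Ccl24 and Mmp13 (346 against 11). With 1 library each, a cluster and a library cannot be told apart there.

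Within the macrophage clusters that both libraries filled best, Chil3 and Slfn4, the ratio of Fcgr2b was further below 1 than in the whole class. In the Chil3 cluster it stood at 365 and 177 CPM (0.484, 0.375 to 0.620), and in the Slfn4 cluster at 363 and 153 CPM (0.420, 0.312 to 0.576). The Sparc cluster, which held most microglia, had 367 and 131 CPM (0.358, 0.283 to 0.456), close to its class. In the Ace cluster, whose genes mark non-classical monocytes, the 221 and 167 CPM overlapped (0.754, 0.363 to 1.76; 18 and 69 cells). The Ccl8 and Ccl24 cluster had 687 and 283 CPM (0.411, 0.214 to 0.908), with 9 wild-type UMIs. Fcer1g was higher in the Chil3, Slfn4 and Sparc clusters: 1871 and 2836 CPM in the Chil3 cluster, 1801 and 3229 CPM in the Slfn4 cluster, and 1203 and 1937 CPM in microglia. Fcgr1, with a class ratio near 1, stood at 328 and 555 CPM in the Chil3 cluster (1.69, 1.42 to 2.02) and at 461 and 507 CPM in the Slfn4 cluster (1.10). Its ratio was 1.57 when clusters with at least 10 cells in each library were weighted as in the wild-type library. These were the Chil3, Slfn4 and Ace clusters and the Ccl8 and Ccl24 cluster, with 82, 454, 69 and 346 of the 3459 knockout-labelled cells. The Apoe, Clec4e, Cxcl1 and Nos2 clusters had no part in it.

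Across the knockout-labelled clusters the RNA of Fcgr2b and that of Fcgr1 had different orders. Fcgr2b was at 490 CPM in the Ifnb1 and Gbp2b cluster, 375 CPM in the Clec4e cluster and 327 CPM in the Cxcl1 cluster, and as low as 153 CPM in the Slfn4 cluster and 101 CPM in a small Tmem176b and Mgl2 cluster, in which 28% of cells also had a UMI of the T cell gene Cd3e. Fcgr1 was at 750 CPM in the Ccl24 and Mrc1 cluster, 555 CPM in the Chil3 cluster and 507 CPM in the Slfn4 cluster, and at 73.8 CPM in the Ace cluster. The clusters rich in the inflammatory genes Ifnb1, Clec4e and Cxcl1 were thus those with the most Fcgr2b in that library.

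**Figure D3:**
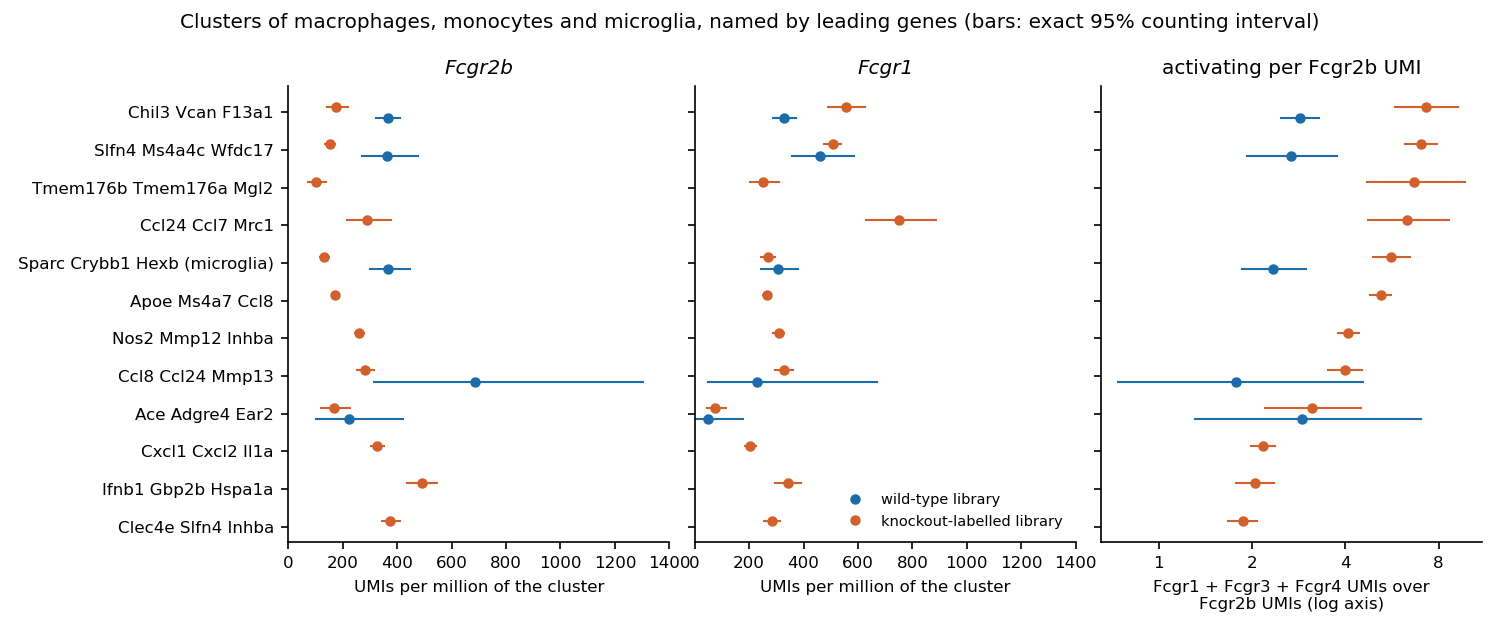
Levels (CPM) of Fcgr2b and Fcgr1 and, on a log axis, activating receptor UMIs per Fcgr2b UMI in macrophage, monocyte and microglia clusters, named by leading genes, with 95% counting intervals for wild-type (blue) and knockout-labelled (orange) cells. In the Chil3, Slfn4 and Sparc clusters the Fcgr2b level of the knockout-labelled library (177, 153 and 131 CPM) lies below that of the wild-type library (365, 363 and 367 CPM).

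The balance of receptor RNA was described by the UMIs of the 3 activating receptor genes per UMI of Fcgr2b. This ratio of counts is read only between classes and libraries, not as a comparison of levels between genes. In the knockout-labelled library it does not describe a balance of receptor proteins, since the part of Fcgr2b deleted there is not given. It was 2.58 (2.30 to 2.90) in wild-type and 3.83 (3.70 to 3.96) in knockout-labelled macrophages. In the latter it was 7.00 when only clusters with at least 10 cells in each library were used, weighted as in the wild-type library. In microglia it was 2.32 and 5.85, in type 2 dendritic cells 1.94 and 3.09, and in type 1 dendritic cells 0.957 and 2.08. B or plasma cells lay at 0.128 (0.0446 to 0.299) and 0.492 (0.307 to 0.773), on only 6 and 30 activating UMIs. Fcgr1 had 0 and 12 of these, Fcgr4 0 and 8, and Fcgr3 6 and 10. Wild-type basophils lay at 1.00. Neutrophils were at 3.46 and 3.35, but their cluster led by G0s2 and Retnlg was at 3.31 (1.75 to 6.70) and 9.50 (3.42 to 36.6), and the Camp and Ngp cluster of the knockout-labelled library at 1.46. Within the knockout-labelled library the clusters ran from 1.87 (Clec4e), 2.04 (Ifnb1) and 2.17 (Cxcl1) through 4.09 (Nos2) and 5.20 (Apoe) to 7.00 (Slfn4) and 7.28 (Chil3). The wild-type Slfn4 and Chil3 clusters lay at 2.67 and 2.85, below both values of these clusters in the other library.

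Over the whole class, Fcgr2b and Fcgr3 were found in the same macrophages about as often as the product of their separate shares. That product mixes clusters with different levels of both genes, so it does not describe co-detection within a cluster. The same holds for the other pairs below. Each cell was thinned to 1000 UMIs so that depth was equal, which left 303 wild-type and 3346 knockout-labelled macrophages and left out 31 and 113 shallower ones. Both Fcgr2b and Fcgr3 were detected in 9.24% of wild-type cells (6.23 to 13.1), where the product of the single shares was 8.51%. In knockout-labelled cells they were detected together in 6.097% (5.31 to 6.96), against a product of 5.93%. These shares differed with the depth used. They were 27.5% and 15.04% at 2000 UMIs, where cells with fewer UMIs were left out, and 37.7% and 35.6% with all UMIs. The knockout-labelled share was 3.70% when only clusters with at least 10 cells in each library were used, weighted as in the wild-type library. Fcgr1 and Fcgr2b were found together in fewer knockout-labelled cells than the product, 4.84% (4.14 to 5.62) against 5.79%, and the activating pair Fcgr3 and Fcgr4 in more, 6.13% (5.34 to 6.99) against 5.15%. At 2000 UMIs the first of these pairs no longer stood apart, at 14.2% against 14.2%. Fcgr2b and Fcgr4 were found together in 8.91% of wild-type cells (5.95 to 12.7) against a product of 6.13%, and in 4.09% of knockout-labelled cells (3.45 to 4.82) against 4.44%.

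By state, 18.8% of wild-type macrophages had Fcgr2b with at least 1 activating receptor gene, 43.9% an activating receptor only, 8.91% Fcgr2b only and 28.4% neither. In the knockout-labelled library these shares were 11.7%, 42.8%, 10.9% and 34.6%. The states describe RNA, and whether Fcgr2b RNA of that library encodes the receptor is not known. The order of the libraries was different at 2000 UMIs for some states: an activating receptor only was found in 37.6% and 50.4% of cells, and Fcgr2b only in 12.8% and 8.33%. Cells with fewer than 2000 UMIs were left out there, so the depth and the set of cells changed together. Cells with both were 37.2% and 25.3% at that depth, and 47.0% and 45.9% with all UMIs. In microglia (70 and 308 cells) cells with both were 20.0% and 4.87%, and cells with an activating receptor only were 31.4% and 40.6%. Type 2 dendritic cells (155 and 224 cells) had both in 3.87% and 2.23%, and neither in 69.0% and 65.6%. Transcripts of all 4 receptor genes were found in 3 wild-type (0.99%) and 13 knockout-labelled (0.389%) macrophages. Fcer1g was detected in 71.3% of the knockout-labelled macrophages with Fcgr2b only and in 87.6% of those with an activating receptor only. These 2 states mix the clusters in different parts. Cells with Fcgr2b only were 19.9% of the knockout-labelled Cxcl1 cluster and 6.44% of the Slfn4 cluster. Cells with an activating receptor only were 29.7% and 48.2% of these clusters. The part of the clusters in the Fcer1g shares was not tested. By cluster, cells with both made up 22.3% of the knockout-labelled Ifnb1 cluster, 14.5% of the Nos2 cluster and 4.94% of the Chil3 cluster, which had 18.2% in the wild-type library. Among macrophages with and without an activating receptor UMI, Fcgr2b was detected in 30.0% and 23.9% of wild-type cells and in 21.4% and 24.0% of knockout-labelled cells. At 2000 UMIs these were 49.7% and 50.8%, and 33.4% and 34.3%.

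**Figure D4:**
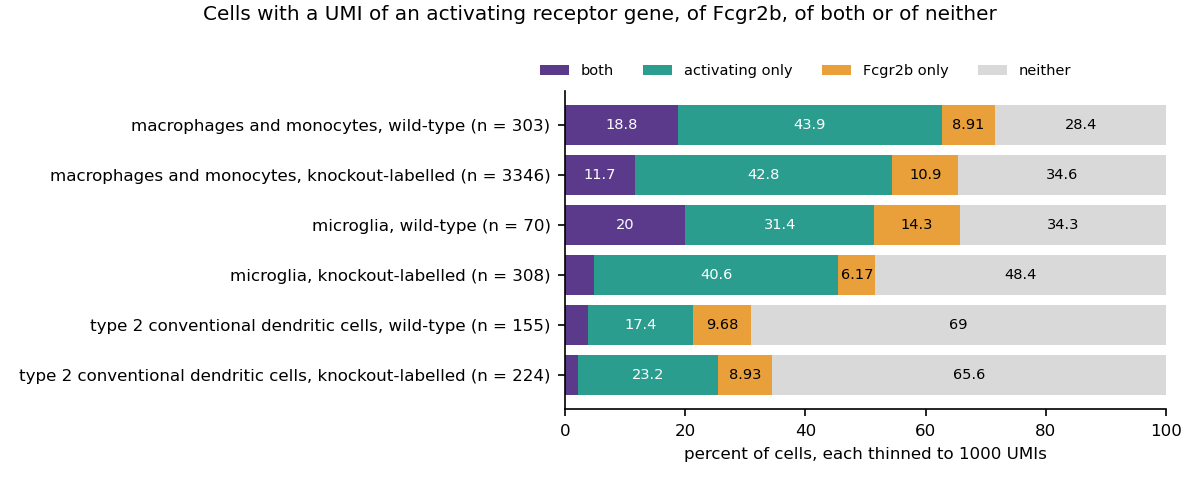
Share of cells (percent) with both an activating receptor gene and Fcgr2b, an activating receptor only, Fcgr2b only or neither, after thinning each cell to 1000 UMIs, by class and library. The share with both is 18.8% and 11.7% in wild-type and knockout-labelled macrophages, and 20.0% and 4.87% in microglia.

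In type 2 dendritic cells Fcgr3 stood at 53.4 CPM in the wild-type and 122 CPM in the knockout-labelled library (2.28, 1.62 to 3.28), and Fcgr4 at 61.2 and 91.2 CPM (1.49, 1.06 to 2.12). Fcgr3 was the 1 gene of the 6 past 2-fold there, on the higher side with 2.58% of 3178 genes (4.03% were on the lower side). Fcgr2b overlapped, at 129 and 122 CPM (0.948), and Fcgrt stood at 161 and 125 CPM (0.777, 0.617 to 0.981). Genes that are also high in macrophages differed in the same direction as Fcgr3 in this class: Clec4e stood at 7.81 and 56.2 CPM (7.20) and Clec4n at 63.8 and 177 CPM (2.78). Their part in the result was not tested. In type 1 dendritic cells Fcgr2b stood at 52.6 and 31.0 CPM (0.590, 0.376 to 0.922) and Fcgrt at 196 and 130 CPM (0.666, 0.535 to 0.829). Fcgr4 was at 3.36 CPM (3 UMIs) and 11.9 CPM (15 UMIs; 3.55, 1.01 to 19.2) and Fcgr3 at 24.6 and 32.6 CPM (1.32, 0.771 to 2.34). Differences between the subsets were not tested. In type 1 cells 0 of 3 genes passed 2-fold (1.27% of genes higher, 2.11% lower). In migratory dendritic cells the 1 gene counted did not pass (3.11% in each direction).

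NK cells showed Fcgr3 and Fcer1g in opposite directions. Fcgr3 stood at 27.0 CPM in the wild-type and 78.6 CPM in the knockout-labelled library, a ratio of 2.91 (2.03 to 4.22), and was the 1 of 2 genes past 2-fold, on the higher side with 0.981% of 3161 genes (1.42% lower). After thinning to 1000 UMIs, 3.07% and 7.40% of NK cells had an Fcgr3 UMI. Fcer1g, whose chain carries the signal of FcγRIII in NK cells, stood at 1568 and 1209 CPM (0.771, 0.722 to 0.823). Tyrobp, another ITAM chain of NK receptors, was at 1699 and 2225 CPM, and Cd247, the zeta chain, at 69.5 and 75.0 CPM.

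The NK class was made of clusters in unequal parts. The cluster led by Klra8, Klra4 and Klrb1c held 783 of 798 wild-type but 235 of 381 knockout-labelled cells. Within it Fcgr3 stood at 27.3 and 86.0 CPM (3.15, 2.14 to 4.67) and Fcer1g at 1566 and 950 CPM (0.607). In the cluster led by Klra1 and Gzma, with 15 and 146 cells, Fcer1g was at 1761 and 1767 CPM. NK markers also differed between the libraries: Klrb1c was at 350 and 127 CPM and Ncr1 at 92.0 and 132 CPM, and their part in the result was not tested.

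Fcer1g was also counted in CD8 T cells, where it stood at 192 CPM in the wild-type and 116 CPM in the knockout-labelled library (0.603, 0.525 to 0.694), with a ratio of 0.937 when each cell had equal weight. The direction was not common to the clusters. The cluster led by Cd8a, Klra5 and Gzmb had 298 and 166 CPM. The Grap2 and Ccl5 cluster had 11.01 and 57.9 CPM (5.26, 1.97 to 19.8), with only 4 wild-type UMIs. The Gzmk cluster had 14.9 and 57.8 CPM (3.89, 1.28 to 19.3), with only 3. Over all T cells, free RNA sized from macrophage genes would give 3.2 and 16.8 CPM of Fcer1g. Its part in these ratios was not tested. The 1 gene counted in CD8 T cells did not pass 2-fold (0.625% of genes higher, 1.25% lower). In cycling CD8 T cells Fcer1g stood at 202 and 86.5 CPM (0.427), and this 1 gene passed 2-fold on the lower side, with 1.63% of 3383 genes (1.09% higher). In conventional CD4 T cells it was low, at 11.04 and 32.2 CPM (2.92), and at 18.97 CPM in the knockout-labelled library less the free RNA estimated there.

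T cells of the wild-type library had almost no Fc gamma receptor UMIs, while those of the knockout-labelled library held Fcgr2b and Fcgr3. Over all T cells (1496 and 2897) Fcgr2b had 4 UMIs (0.721 CPM) in the wild-type and 177 UMIs (10.9 CPM) in the knockout-labelled library, a ratio of 15.2 (5.82 to 56.2). Fcgr3 had 5 and 144 UMIs (0.902 and 8.90 CPM; 9.86, 4.13 to 30.8). Fcgr1, highest in macrophages, had 0 and 18 UMIs. Free RNA, sized from 12 macrophage genes counted in the same cells, would give 0.296 and 1.33 CPM of Fcgr2b, and 1.63 CPM of Fcgr1 in the knockout-labelled library where 1.11 CPM was measured. After thinning, 0.0726% and 1.07% of T cells had an Fcgr2b UMI.

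The Fcgr2b UMIs were spread over the T cell classes: of the 177, mixed T cells held 50, cycling CD8 43, CD8 38, conventional CD4 26 and regulatory T cells 19. Levels were highest in mixed T cells and plasmacytoid dendritic cells. A mixed class of T cells that held no single set of subset markers had 2.25 CPM (2 UMIs) and 32.6 CPM (50 UMIs), with 2.59 CPM of free RNA estimated in the latter. Its knockout-labelled S1pr1, Tcf7 and Cd40lg cluster stood at 44.3 CPM against 0 UMIs in the wild-type library. Plasmacytoid dendritic cells (46 and 96 cells) had 0 and 50 UMIs, the latter 69.9 CPM with 5.00 CPM of free RNA estimated. CD8 (6.63 CPM), regulatory (9.75 CPM), cycling CD8 (9.95 CPM) and conventional CD4 T cells (10.4 CPM) of the knockout-labelled library were lower, against 0 to 1.00 CPM in the wild-type library. Regulatory T cells held the most Fcgr3 of the T cell classes compared in that library, at 20.0 CPM (14.2 to 27.4, 39 UMIs, with 2.08 CPM of free RNA estimated) against 1.30 CPM (1 UMI) in the wild-type library. This interval meets that of mixed T cells (8.48 CPM, 4.51 to 14.5).

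Fcgr2b was also set against Fcgr1 and Fcgr4 in each class. Knockout-labelled macrophages had 0.418 Fcgr2b UMIs per UMI of Fcgr1 and Fcgr4 (0.403 to 0.434). Mixed T cells and plasmacytoid dendritic cells each had 12.5 (4.59 to 47.7), cycling CD8 T cells 5.38 (2.50 to 13.2) and CD8 T cells 2.24 (1.23 to 4.22). In knockout-labelled cells with no UMI of the 12 macrophage genes, an alternative chosen after seeing the data, Fcgr2b was at 34.2 CPM in mixed T cells (22.9 to 49.1, 305 cells), 48.9 CPM in plasmacytoid dendritic cells (26.8 to 82.1, 40 cells) and 6.69 CPM in CD8 T cells. Fcgr3 stood at 20.3 CPM (12.4 to 31.4) in such regulatory T cells. The source of these UMIs was not tested. In the T cell classes none of the receptor genes reached the 50 CPM needed to count toward 2-fold. Mixed T cells had 0 of 1 past 2-fold (1.23% of genes higher, 1.39% lower), and no gene was counted in regulatory (1.13% and 1.35%) or conventional CD4 T cells (0.932% and 1.02%).

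**Figure D5:**
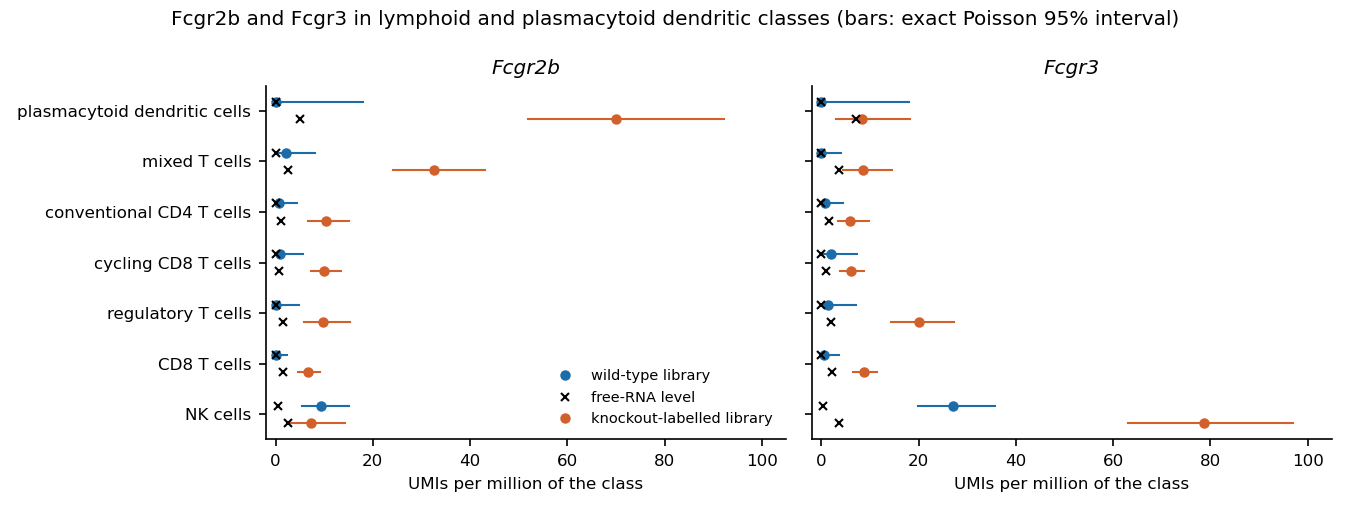
Fcgr2b and Fcgr3 levels (CPM) in NK cells, T cell classes and plasmacytoid dendritic cells of both libraries with 95% counting intervals, and crosses at the level that free RNA would give. In the knockout-labelled library Fcgr2b stands at 69.9 CPM in plasmacytoid dendritic cells and 32.6 CPM in mixed T cells, where the estimates of free RNA are 5.00 and 2.59 CPM.

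In B or plasma cells Fcgr2b stood at 114 CPM in the wild-type and 72.8 CPM in the knockout-labelled library (0.638, 0.429 to 0.955), with 0 of 2 genes past 2-fold (4.55% of genes higher, 5.19% lower). The direction turned to a ratio of 1.06 in cells with at most 5% mitochondrial UMIs.

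The partners of these receptors were read from fixed lists in macrophages and monocytes, among genes at 50 CPM or more, of which 5.24% were past 2-fold higher and 8.73% lower. Of 18 genes of activating signalling, 13 were counted, of which 0 were past 2-fold higher and 3 lower: the Src-family kinase Fgr (164 and 65.6 CPM, ratio 0.399), the adaptor Lcp2 (243 and 107 CPM, 0.439) and the PI3-kinase subunit Pik3cd (197 and 87.8 CPM, 0.445). The list's median log2 ratio was -0.53, against -0.18 over all genes. The class differed in cluster make-up between the libraries, and its part in the list values was not tested. No gene of this list passed 2-fold in microglia, type 2 dendritic cells, NK cells or CD8 T cells (13, 12, 11 and 7 counted). The list medians there were -0.17, -0.24, -0.11 and -0.21, against -0.24, -0.12, -0.06 and -0.11 over all genes. Of 9 genes of inhibitory signalling, 6 were counted and 1 was lower, the adaptor Dok2 (136 and 45.1 CPM, 0.331). Inpp5d, the phosphatase that FcγRIIB recruits, stood at 173 and 134 CPM (0.775) and Dok3 at 75.8 and 111 CPM (1.47), with a list median of -0.20.

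Other receptors that use the gamma chain had 4 of 6 genes counted, 1 of them higher: the lectin Clec4n (44.8 and 157 CPM, 3.50). Clec4e stood at 311 and 250 CPM (0.803) and Pira2 at 54.8 and 25.2 CPM (0.459), and the list median was -0.04. Of 3 other signal chains, 2 were counted and none passed: Tyrobp (2175 and 2954 CPM, 1.36) and Hcst (71.3 and 70.1 CPM), with a list median of 0.21. Of the phagocyte oxidase, which Fc receptors engage during uptake, Cyba, a chain of the membrane core, was at 855 and 1968 CPM (2.30), while Cybb, its partner there, was at 1054 and 383 CPM (0.364). Of 12 other Fc receptor genes none was counted in macrophages, and in microglia 1 was, Fcrls, a microglial gene, at 512 and 28.8 CPM (0.0561).

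Over 24 points (12 classes in 2 libraries, which share cells' depth and make-up), the genes most like each receptor were named by Pearson's r of log2 CPM, 10 added, among 3819 genes. For Fcgr1 they were Fcgr4 (0.981), Cd68 (0.978) and Nlrp3 (0.973), and for Fcgr4 they were Fcgr1 (0.981), Cd14 (0.970) and Ccl6 (0.964). Those of Fcgr3 were Trf (0.927), Itgam (0.927) and Fcgr4 (0.925), and those of Fcgr2b were Cd300lf (0.949), Plaur (0.922) and Lyz2 (0.911). Fcer1g was most like Rnf130 (0.933), Tyrobp (0.927) and Itga5 (0.872). Fcgrt was most like Pak1 (0.955), Tbc1d9 (0.955) and Ccnd1 (0.947), and its r with Fcgr2b was 0.608, below the 0.881 of Fcgr1 with Fcgr2b.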

How the data were processed

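Single-cell 5′ RNA counts were read from 1 library per genotype. The deposited values are raw UMI counts per gene and cell, made with Cell Ranger 6.1.2 per the file headers, on mm10 (GRCm38) per the submitters' processing notes. The sources used here do not state the strand setting of the counting. Barcodes with under 200 genes (10 and 13) or over 10% mitochondrial UMIs (196 and 373) were left out, and 119 and 676 called doublets were removed, at 0.8% per 1000 cells. Of 3854 and 9194 barcodes, 3538 and 8145 cells remained, with 14170828 and 50921793 UMIs over all barcodes. Over all cells of a library, a count of 0 allows a share of cells with a UMI of up to 0.0848% and 0.0368%. A count of 0 in a single class, which has fewer cells, allows a larger share. Neither limits the share of cells expressing a gene.

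Cells were clustered with scanpy 1.11.5 and leidenalg 0.10.2 (2000 variable genes without the 6 genes, 30 components, 15 neighbours, resolution 1) and named from marker lists. Cluster names, the depth of the second round of clustering for lymphoid cells and the gate genes were set after seeing the data. UMIs were summed per class and library. Poisson, binomial (Clopper-Pearson) and conditional ratio intervals came from scipy 1.17.1. Past 2-fold means a ratio of at least 2 with 10 CPM added, among genes at 50 CPM or more in 1 library. Classes with 50 cells in both libraries were compared. Named genes were the 6 genes, up to 3 per list by size of ratio, and the 3 most alike by r. The list of phagocyte oxidase genes is not reported here in full. The calculations were tested on simulated data. The 6 genes and all lists were chosen with earlier results of these data known.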

Additional observations from a re-analysis of the deposited data

Results flagged for a closer look

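For 4 of the 6 genes, classes of the same libraries differed in opposite directions between the genotypes, with counting intervals on opposite sides of equality. With 1 library per genotype these differences between classes were not tested. The ratio of Fcgr2b, knockout-labelled over wild-type, was 0.340 in microglia and 14.5 in mixed T cells. That of Fcgr3 was 0.734 in microglia and 15.4 in regulatory T cells, which rests on 1 wild-type UMI. That of Fcer1g was 0.427 in cycling CD8 T cells and 2.92 in conventional CD4 T cells. That of Fcgrt was 0.666 in type 1 conventional dendritic cells and 3.15 in macrophages and monocytes.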

How the results depend on the processing

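No paired analysis was possible because each genotype has 1 library, and for the same reason no library could be left out. Of the values that answer a comparison, 51 moved within their counting interval, 23 moved beyond it and 2 turned direction. Of the others 142, 20 and 1 did. A turn was called only where the main interval excluded equality. The Fcgr1 and Fcgr4 ratios that changed side below are therefore not counted as turned. In macrophages and monocytes, size factors by the median of ratios gave ratios of 0.723 for Fcgr2b, 0.997 for Fcgr3 and 1.91 for Fcer1g. Equal weight per cell gave 0.733 for Fcgr2b, 1.49 for Fcer1g and a knockout-labelled activating to inhibitory ratio of 3.02. The wild-type cluster make-up used only clusters with at least 10 cells in each library, which hold 295 wild-type cells before thinning. It gave 0.480 for Fcgr2b, 1.57 for Fcgr1, 1.09 for Fcgr3 (turned), 0.913 for Fcgr4 and 1.57 for Fcer1g. For these clusters it gave 7.00 for the knockout-labelled activating to inhibitory ratio and 3.70% for knockout-labelled co-detection of Fcgr3 and Fcgr2b. The gate on marker UMIs (322 and 2388 cells) gave 0.802 for Fcgr2b, 1.13 for Fcgr1, 1.03 for Fcgr3 (turned), 1.30 for Fcgr4, 1.24 for Fcgrt and 3.61 for the activating to inhibitory ratio. Without doublet removal the Fcer1g ratio was 1.62, and at most 5% mitochondrial UMIs gave an activating to inhibitory ratio of 4.02. Co-detection was 27.5% and 15.04% at 2000 UMIs, among cells with at least 2000 UMIs, and 37.7% and 35.6% with all UMIs. In B or plasma cells the Fcgr2b ratio turned to 1.06 at most 5% mitochondrial UMIs. The cause was not tested. Mixed T cells had no wild-type Fcgr2b UMI under that limit, so it gave no ratio.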
